A study of Homo sapiens with 12 samples.

Results

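Small RNA host transcripts and other long noncoding RNAs were followed in 293T cells by 150 probe sets for 67 genes, out of 54675 probe sets on the array, of which 41091, for 19775 genes, carried 1 gene symbol. A probe set was included if its only annotated symbol began with SNHG, began with MIR and ended with HG, or was one of a list of named transcripts such as GAS5, MALAT1, TUG1, NORAD, ZFAS1, DLEU2, LINC-PINT and GHET1. By role, 15 genes were hosts of small nucleolar RNAs (snoRNAs), 39 were hosts of microRNAs, 4 were transcripts known mainly from the nucleus (MALAT1, TUG1, KCNQ1OT1 and MIAT), and 9 were other long noncoding RNAs. In the RefSeq table, 65 of the 67 were long noncoding RNA genes, TUG1 was entered as protein coding, and 1 gene had no match. None of the transcripts was called between the vectors. GHET1 and LINC-PINT were the 2 without overlap with the empty vector arrays. GHET1, a dim transcript, was about doubled with the tRNA vector, and LINC-PINT was lower with both CU1276 vectors. Each was 1 of 85 tested probe sets in its direction. Of all tested probe sets, 1.17% lay wholly higher with the tRNA vector. Wholly lower were 1.43% (tRNA vector) and 1.06% (hairpin vector). More of the 85 probe sets differed between sets of arrays that cut across the vectors, among them probe sets of NORAD, GAS5 and MALAT1. That share was 27.1%, with 20.8% of all tested probe sets.

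The study used 293T, a human embryonic kidney line, transfected transiently with plasmids by polyethylenimine (PEI) in every group. Cells were collected after 48 hours and 12 µg of total RNA per sample was labelled with biotin. The 3 groups, of 4 biological replicates each, received an empty vector, a vector for the glycine tRNA gene chr1.tRNA68-Gly(GCC), whose transcript the labels describe as being cut to the small RNA CU1276 (tRNA vector), or a vector for an artificial CU1276 hairpin (hairpin vector). The comparisons ask which transcripts differ when CU1276 is supplied from either source; the empty vector arrays serve as control for both vectors, so those comparisons share their reference. Values are MAS5 signals on a linear scale, and a difference is a difference of mean log2 signal with its standard error (SE) from limma, n = 4 arrays per group, where 1 unit is a doubling. Group means of signal are given ± SD.

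Most snoRNA host genes make a spliced transcript whose introns carry the snoRNAs. The introns are trimmed to release the snoRNA, which guides chemical modification of ribosomal and other RNAs, while many of the spliced transcripts begin with a 5′ terminal oligopyrimidine run and are removed by nonsense-mediated decay during translation. MicroRNA host genes likewise carry microRNA hairpins that are cut out of the primary transcript, and other long noncoding RNAs act themselves, as MALAT1 in nuclear speckles or NORAD by binding PUMILIO proteins in the cytoplasm. The arrays measured the host transcripts and not the small RNAs.

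The start of a host gene was inspected for the terminal pyrimidine run, because this feature was not used to choose the genes and is a known property of snoRNA hosts. A start was counted when the annotated first base was C and at least 4 bases of C or T followed. In RefSeq (GRCh38.p14), 5 of the 14 snoRNA host genes with an entry had such a start (35.71%): ZFAS1, SNHG32, SNHG19, SNHG4 and SNHG18. Among the other noncoding genes of the set, 0 of 40 with an entry had one, and among all genes with an entry the share was 5.14%. The 30 bases before and the first 30 bases of the transcript are shown for 3 of these hosts, with the run in capitals. They are also shown for GHET1, which is described below and has no such run.
ZFAS1, chr20:49278612-49278671, plus strand: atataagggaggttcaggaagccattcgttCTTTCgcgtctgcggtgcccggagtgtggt
SNHG32, chr6:31834886-31834945, plus strand: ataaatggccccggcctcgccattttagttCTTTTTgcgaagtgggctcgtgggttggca
SNHG19, chr16:2155329-2155388, minus strand: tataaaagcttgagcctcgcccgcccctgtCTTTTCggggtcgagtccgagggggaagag
GHET1, chr7:148987497-148987556, plus strand: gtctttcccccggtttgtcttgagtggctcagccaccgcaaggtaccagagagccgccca
By the rule the run begins at the annotated first base, and it measured 5, 6 and 6 bases in ZFAS1, SNHG32 and SNHG19. This is a description of the annotated starts; transcript ends were not measured here.

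Small RNA genes lay within the span of most of these hosts. GAS5 held 11 snoRNA genes, SNHG17 held 5, ZFAS1 and SNHG33 held 3 each, SNHG32 and SNHG4 held 2 each, and DANCR, EPB41L4A-AS1 and SNHG19 held 1 each. A microRNA gene lay within the span of 40 genes of the set. For 3 hosts described below, mature microRNAs with an entry are shown with the seed, bases 2 to 8, in capitals, since the seed groups microRNAs by the targets they can pair with.
hsa-miR-15a-5p, chr13:50049167-50049188, minus strand: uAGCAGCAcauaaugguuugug
hsa-miR-16-5p, chr13:50049027-50049048, minus strand: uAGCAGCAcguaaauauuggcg
hsa-miR-374b-5p, chrX:74218587-74218608, minus strand: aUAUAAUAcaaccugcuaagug
hsa-miR-9-5p, chr1:156420392-156420414, minus strand: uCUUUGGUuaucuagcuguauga
Of the 3 microRNA genes in the span of DLEU2, MIR15A and MIR16-1 gave the first pair, which shared the seed AGCAGCA; the other, MIR3613, is not shown. FTX held 5 microRNA genes, of which only MIR374B is shown, and MIR9-1HG held 1. The seeds of miR-374b-5p and miR-9-5p differed from AGCAGCA and from each other.

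The arrays had median signals from 75.9 to 104. Of 8 markers of the line, VIM (19029 to 25719), NEFM (3872 to 5486), NEFL (2457 to 3156) and KRT18 (2110 to 2633) were bright in every array. KRT8 (158 to 276) and PAX2 (66.0 to 237) were lower, NEFH (10.7 to 78.9) was dim, and LHX1 was below the filter. The 16 markers of other cells summed to between 1452 and 2257 in every array, much of it from COL1A1 at 607 to 1105, and the ranges of that sum overlapped between the groups. The signals of 27 control probe sets for Bacillus RNAs split the arrays into 3 sets in the same way in each group: array means were 1726 to 1834 for replicate 1, 331 to 389 for replicate 2 and 20.01 to 26.1 for replicates 3 and 4. The labels do not say what the sets were. Each set held all 3 vectors.

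Of the 150 probe sets, 85 for 39 genes passed the filter on dim signal, a geometric mean of 43.3 over the 12 arrays, and were tested. By gene, 11 of 15 snoRNA hosts, 17 of 39 microRNA hosts, all 4 nuclear transcripts and 7 of 9 others had a tested probe set. The other 65 probe sets had single-array signals from 0.754 to 159 with a median of 20.9, and 28 genes had no tested probe set, among them MIR17HG, the host of the miR-17 to 92 cluster, PVT1, CYTOR, SNHG10 and SNHG18. Among the 85 tested probe sets, 14 had a group geometric mean below the filter signal and passed through the other groups. They were the tested probe sets of MIR4435-2HG, MIR2052HG, MIR3681HG, MIR4300HG, MEG3, SNHG4 and SNHG22 and single dim ones of DLEU2, KCNQ1OT1, MALAT1, TUG1, HCG18 and MIR99AHG, and their differences are given as descriptions. NEAT1 and H19 had no probe set with their symbol alone. They were among 28 hosts annotated only together with other symbols, and of 81 such probe sets for 40 hosts, 65 were tested and 0 were called in each comparison.

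No host or long noncoding transcript passed an adjusted p of 0.05 in any comparison. By limma with Benjamini-Hochberg adjustment over 32768 probe sets, 0 of 85 were called for the tRNA vector against the empty vector, 0 of 85 for the hairpin vector against the empty vector and 0 of 85 for the hairpin vector against the tRNA vector, where 0.0% of all tested probe sets were called in each. At an unadjusted limma p under 0.05 the counts were 3 of 85 for the tRNA vector against the empty vector (3.53%, with 3.78% of all tested probe sets), 1 of 85 for the hairpin vector against the empty vector (1.18%, with 2.65%) and 2 of 85 for the hairpin vector against the tRNA vector (2.35%, with 3.88%). The gaps were not tested, and on such small counts all 3 shares lay near or below those of all tested probe sets. The probe sets behind them were those of GHET1 and LINC-PINT and 228397_at of TUG1 in the first comparison, 1 of DLEU2 in the second (1564443_at, among the 14 with a group below the filter), and 1 of DLEU2 and that of GHET1 in the third. All 4 arrays of a vector lay above all 4 of the empty vector for 1 of 85 probe sets with the tRNA vector and for 0 of 85 in the hairpin comparison (1.17% and 1.06% of all tested), and below them for 1 of 85 in each (1.43% and 1.06%). Between the vectors, 0 of 85 were wholly higher and 1 of 85 wholly lower in the hairpin arrays (1.46% and 1.17%). In these bulk RNA samples, fewer cells with a transcript and less of it per cell cannot be told apart.

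With each gene taken at its brightest tested probe set, the differences were centred near 0. For the tRNA vector against the empty vector, 19 of 39 genes had a higher and 20 a lower mean, with a median log2 difference of -0.0095, beside 0.0030 over 13952 genes. For the hairpin vector against the empty vector, 23 were higher and 16 lower, with a median of 0.057 beside 0.0042. For the hairpin vector against the tRNA vector, 25 were higher and 14 lower, with a median of 0.044 beside 0.0028. Leaving out 1 array turned the sign of each median: the ranges were -0.017 to 0.054, -0.0070 to 0.096 and -0.065 to 0.057 in that order, with the last falling to -0.065 without replicate 1 of the tRNA vector. The width of the intervals followed the signal. The 13 genes with a geometric mean signal of 1000 or more lay between -0.14 and 0.085 on the log2 scale with the tRNA vector against the empty vector, and all their 95% intervals lay between -0.54 and 0.39. For the hairpin vector against the empty vector those 13 lay between -0.071 and 0.22, within intervals from -0.33 to 0.54. The 15 genes under a signal of 100 lay between -1.48 and 0.61 and between -0.83 and 0.85 in those comparisons, with SEs from 0.32 to 0.86.

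**Figure D1:**
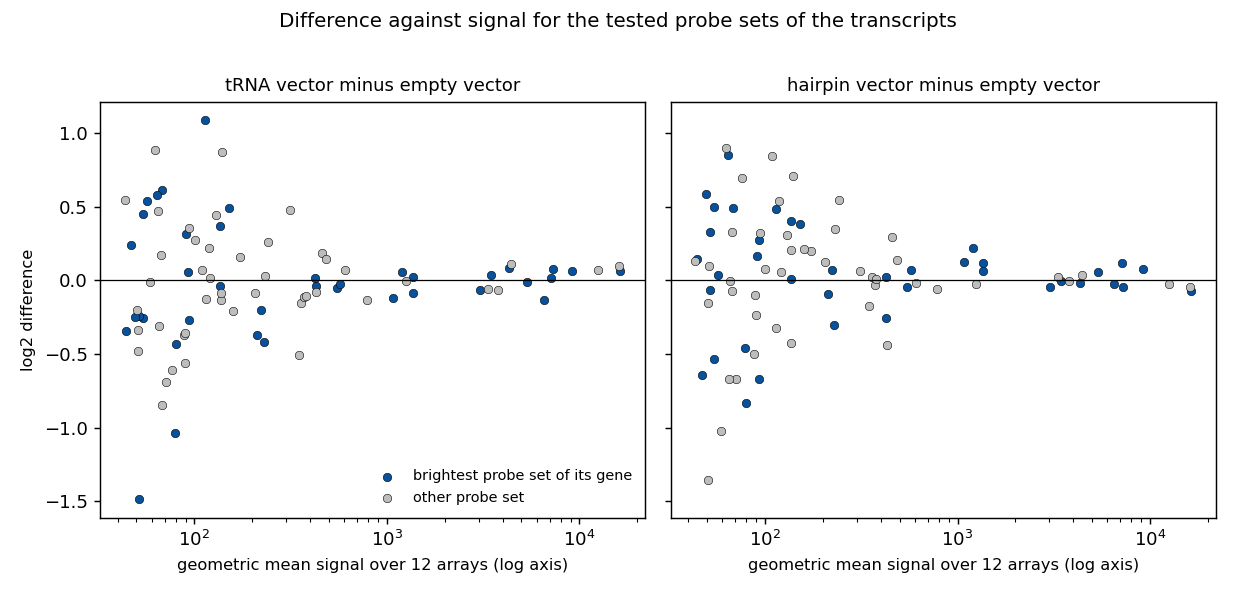
Log2 difference from the empty vector (vertical axis) against geometric mean MAS5 signal over the 12 arrays (horizontal log axis) for the 85 tested probe sets, with the tRNA vector on the left and the hairpin vector on the right; blue points are the brightest probe set of each of 39 genes and grey points the others. The points spread widely at low signal and lie close to 0 above a signal of 1000.

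The bright snoRNA hosts differed little between the vectors, and no snoRNA host was called. The 6 transcripts with the highest mean signal are given in full here and below; signals of different probe sets depend on the probes and are not set against each other. ZFAS1, an antisense transcript of ZNFX1 that hosts 3 snoRNAs of the SNORD12 family, read 17306, 14988, 16927 and 16096 in the empty vector arrays, 15587, 16719, 19443 and 16557 in the tRNA vector arrays and 15427, 14180, 16621 and 15983 in the hairpin vector arrays (group means 16329 ± 1027, 17077 ± 1655 and 15553 ± 1037). The groups overlapped, with differences of 0.062 ± 0.081 (tRNA vector) and -0.071 ± 0.081 (hairpin vector) against the empty vector. SNHG32, which hosts SNORD48 and SNORD52, read 6486, 5739, 7923 and 7154 in the empty vector arrays, 5908, 5095, 6688 and 7183 in the tRNA vector arrays and 6311, 5856, 7147 and 7397 in the hairpin vector arrays. Its differences from the empty vector were -0.14 ± 0.12 and -0.028 ± 0.12. The sets of arrays that share a Bacillus control level gave -0.13, -0.17 and -0.12 (tRNA vector) and -0.040, 0.029 and -0.050 (hairpin vector). With the set as a block the unadjusted limma p was 0.0263 and 0.624, and the adjusted p 0.601 and 0.973. In every group of SNHG32 arrays replicate 2 was the lowest.

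EPB41L4A-AS1, the host of SNORA13, read 5921, 4365, 5635 and 5452 in the empty vector arrays, 5502, 4436, 5791 and 5471 in the tRNA vector arrays and 6149, 4595, 5753 and 5714 in the hairpin vector arrays. Here too replicate 2 was the lowest array of every group, and the differences from the empty vector were -0.0095 ± 0.12 and 0.057 ± 0.12. SNHG17, which hosts snoRNAs of the SNORA71 family, had the tightest groups of these. It read 7426, 7474, 7028 and 6875 in the empty vector arrays, 7694, 7466, 7553 and 7621 in the tRNA vector arrays and 6969, 6869, 7321 and 6791 in the hairpin vector arrays. All 4 hairpin vector arrays lay below all 4 tRNA vector arrays, with group means of 6988 ± 234 and 7584 ± 96.9 and a log2 difference of -0.12 ± 0.061 (limma, unadjusted p = 0.072, adjusted p = 1.00; exact two-sided permutation p = 0.0286, the smallest that 4 against 4 arrays can give). It was the 1 probe set of the 85 that lay lower without overlap in that comparison, as 1.17% of all tested probe sets did. The sets of arrays that share a Bacillus control level gave -0.14, -0.12 and -0.11, and with the set as a block the unadjusted limma p was 0.0397 and the adjusted p 0.603. The other SNHG17 probe set, 65588_at, gave -0.08 ± 0.088, with overlapping groups.

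DANCR, the host of SNORA26 and a transcript known for holding cells undifferentiated, had group means of 4239 ± 75.0, 4518 ± 500.4 and 4182 ± 144 in the empty, tRNA and hairpin vector arrays. SNHG19, the host of SNORD60, had 3444 ± 260.5, 3538 ± 374 and 3438 ± 241. SNHG33 had 1359 ± 191, 1279 ± 186 and 1472 ± 164. In each of these hosts the groups overlapped. The dim hosts had wider SEs. SNHG28 read 76.1, 23.6, 98.9 and 25.1 in the empty vector arrays, 84.6, 59.0, 80.6 and 55.1 in the tRNA vector arrays and 80.6, 135, 52.3 and 82.6 in the hairpin vector arrays, with differences of 0.58 ± 0.52 and 0.85 ± 0.52 from the empty vector. Its groups overlapped in part, with 2 empty vector arrays below and 1 hairpin vector array above all others; without replicate 2 of the empty vector the differences were 0.26 and 0.53, without its replicate 4 they were 0.29 and 0.56, and without its replicate 3 they were 0.95 and 1.22. SNHG4 and SNHG22 ranged from 6.82 to 129 and from 7.57 to 110.4 over the 12 arrays.

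GAS5, the host of a large cluster of snoRNAs, is known as a terminal pyrimidine transcript, although its RefSeq start did not meet the rule used above. It was measured under its symbol alone by 1 probe set, 1560402_at. It read 398, 294, 201 and 131 in the empty vector arrays, 484, 381, 60.01 and 98.7 in the tRNA vector arrays and 375, 382, 145 and 114 in the hairpin vector arrays. The group means were 256 ± 116, 256 ± 209 and 254 ± 144, almost the same in the 3 groups, while within every group replicates 1 and 2 lay above replicates 3 and 4. The differences from the empty vector were -0.37 ± 0.62 and -0.094 ± 0.62 on the log2 scale.

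**Figure D2:**
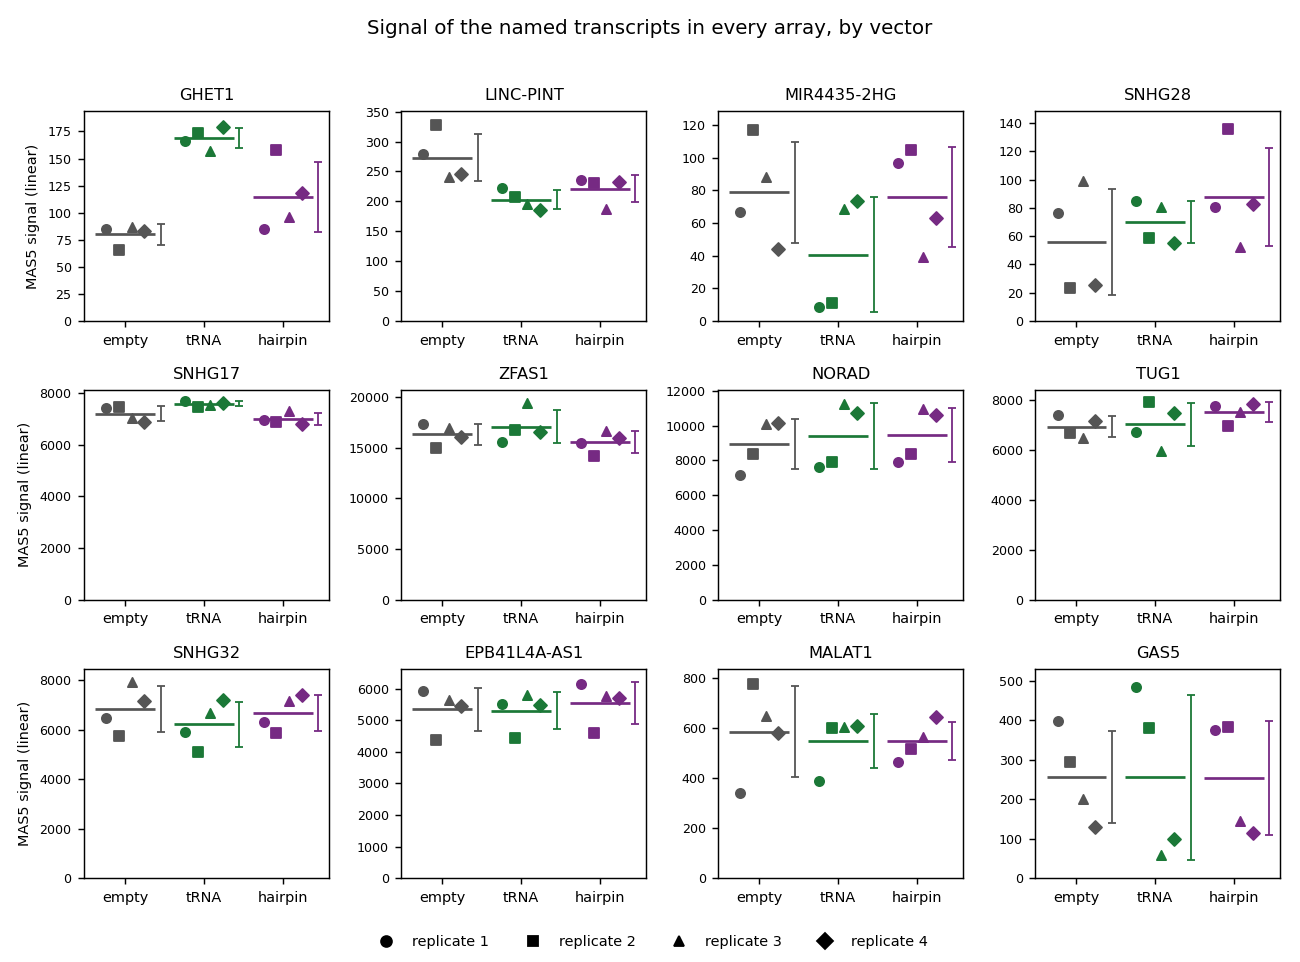
MAS5 signal (linear vertical axis from 0) of 12 transcripts in every array, with the empty, tRNA and hairpin vectors side by side; each point is 1 array, its shape is the replicate number, the horizontal line is the group mean and the bar beside it is ± 1 SD (n = 4). GHET1 is higher in all 4 tRNA vector arrays than in the empty vector arrays, the bright transcripts overlap between vectors, and GAS5 and NORAD divide by replicate number.

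No microRNA host was called, and their means lay on both sides of the empty vector. With the tRNA vector 7 of 17 were higher and 10 lower, with a median log2 difference of -0.040. In the hairpin vector arrays 12 were higher and 5 lower, with a median of 0.070. DLEU2, the transcript of the region lost in chronic lymphocytic leukaemia that carries the miR-15a and miR-16-1 genes, had 6 tested probe sets that disagreed in sign. Its brightest, 1556821_x_at, read 1225, 1053, 1056 and 1002 in the empty vector arrays, 1159, 997, 819 and 1031 in the tRNA vector arrays and 1912, 994, 884 and 1142 in the hairpin vector arrays. The high array there was replicate 1 of the hairpin vector, and the differences from the empty vector were -0.12 ± 0.19 and 0.12 ± 0.19. Of its 6 probe sets, 4 were higher and 2 lower with the hairpin vector than with the empty vector, from -1.35 to 0.70 on the log2 scale.

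Both DLEU2 probe sets with an unadjusted p under 0.05 were dim. Probe set 1564443_at read 57.6, 51.2, 117 and 92.1 in the empty vector arrays, 66.2, 58.4, 29.2 and 111 in the tRNA vector arrays and 46.4, 8.58, 55.9 and 33.4 in the hairpin vector arrays, a difference of -1.35 ± 0.63 for the hairpin vector against the empty vector, with overlapping groups; its hairpin arrays had a geometric mean below the filter signal. Probe set 1569600_at read 83.3, 124, 42.8 and 70.6 in the empty vector arrays, 115, 55.6, 63.8 and 14.2 in the tRNA vector arrays and 133, 129.7, 115 and 109 in the hairpin vector arrays, a difference of 1.31 ± 0.54 for the hairpin vector against the tRNA vector. They lay on opposite sides of 0 for the hairpin vector against the empty vector, at -1.35 and 0.70. FTX, from the X-inactivation centre and the host of miR-374b, read 978, 958, 1355 and 1281 in the empty vector arrays, 940.2, 1273, 1219 and 1295 in the tRNA vector arrays and 1138, 1347, 1369 and 1415 in the hairpin vector arrays, with differences of 0.054 ± 0.14 and 0.22 ± 0.14 from the empty vector.

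MIR4435-2HG had the lowest difference of the 39 genes for the tRNA vector against the empty vector. It read 66.8, 117, 87.9 and 43.8 in the empty vector arrays, 8.81, 11.1, 68.6 and 73.4 in the tRNA vector arrays and 96.5, 105, 39.0 and 63.0 in the hairpin vector arrays. Replicates 1 and 2 of the tRNA vector, at 8.81 and 11.1, were the low arrays, and replicates 3 and 4 lay within the range of the empty vector. The difference was -1.48 ± 0.71 for the tRNA vector against the empty vector, and the sets of arrays gave -2.92, -3.39 and 0.19. The tRNA vector arrays had a geometric mean below the filter signal, and the probe set passed through the other groups, so this difference is given as a description only. Without replicate 1 of the tRNA vector the difference was -0.95. The hairpin vector differed from the empty vector by -0.068 ± 0.71. CYTOR is a closely similar copy of this gene, and which copy the probes read was not tested. MIR9-1HG, a host of miR-9-5p, had group means of 235 ± 54.6, 202 ± 29.0 and 247 ± 62.4. MIR210HG, known as a hypoxia target, had 89.3 ± 39.9, 113 ± 57.0 and 93.9 ± 24.6. Both overlapped in part between the vectors.

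**Figure D3:**
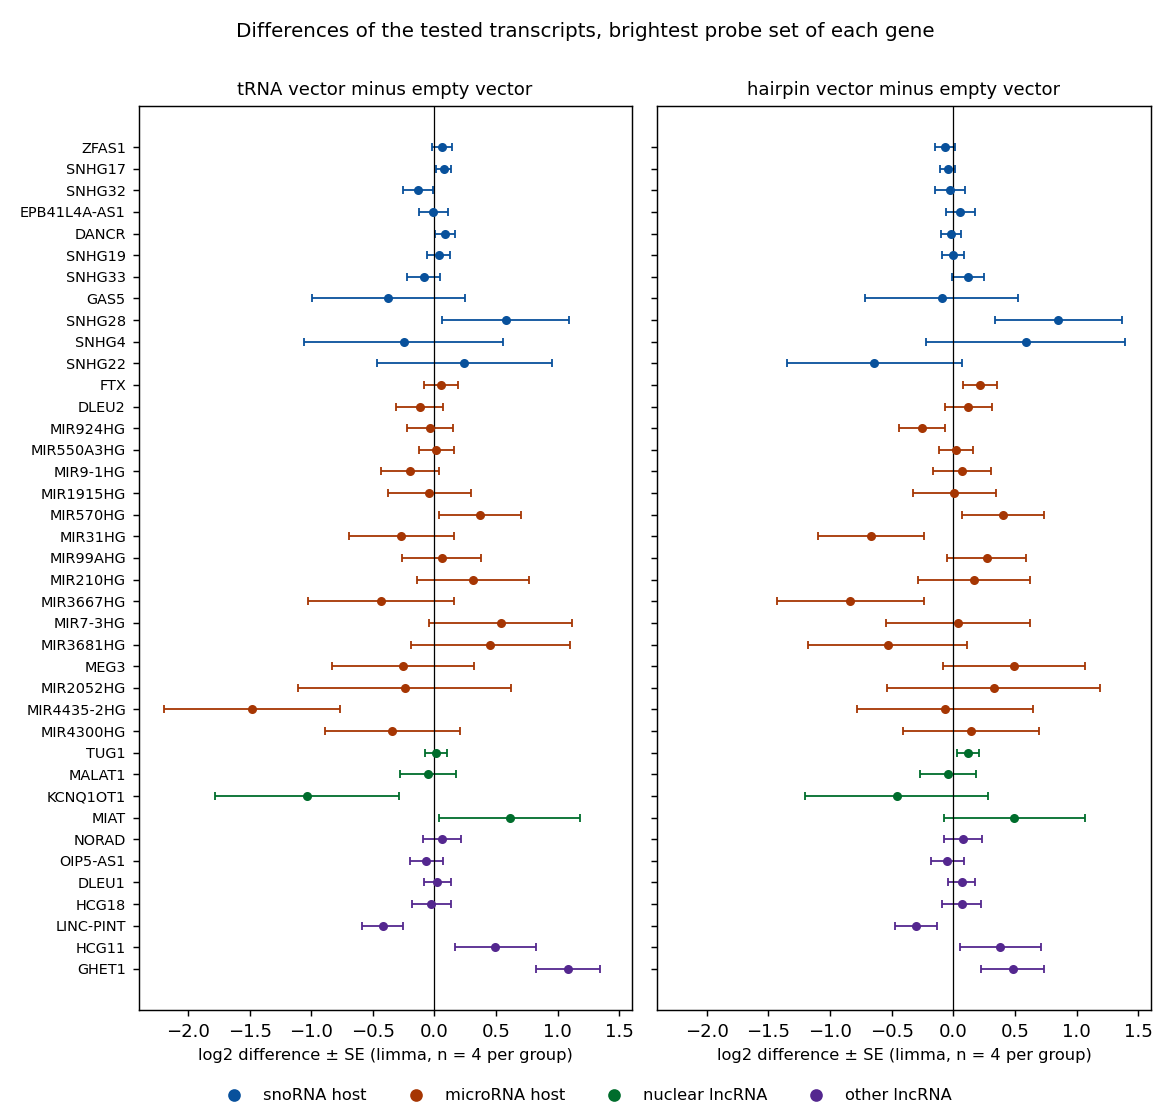
Log2 difference ± SE (limma, n = 4 arrays per group) of the brightest tested probe set of 39 genes for the tRNA vector (left) and the hairpin vector (right) minus the empty vector, coloured by role and ordered by signal within each role. The bright snoRNA hosts at the top have small SEs around 0, and GHET1 at the bottom lies at 1.09 with the tRNA vector.

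None of the nuclear transcripts was called between the vectors. TUG1, taurine up-regulated gene 1, read 7370, 6666, 6467 and 7132 in the empty vector arrays, 6715, 7889, 5929 and 7481 in the tRNA vector arrays and 7738, 6942, 7492 and 7809 in the hairpin vector arrays, with differences of 0.013 ± 0.089 and 0.12 ± 0.089 from the empty vector and overlapping groups. MALAT1, the abundant transcript of nuclear speckles, read 341, 777, 649 and 581 in the empty vector arrays, 389, 601, 605 and 609 in the tRNA vector arrays and 464, 519, 566 and 645 in the hairpin vector arrays at its brightest probe set. Its group means of 587 ± 183, 551 ± 108 and 548 ± 76.5 differed by less than their SDs. Over the 10 tested MALAT1 probe sets, 7 were higher and 3 lower with each vector than with the empty vector, from -0.21 to 0.89 (tRNA vector) and from -0.43 to 0.90 (hairpin vector). Both upper ends came from 224568_x_at. Its empty vector arrays had a geometric mean of 41.5, below the filter signal, and it passed through the other groups. Over the 5 tested TUG1 probe sets the tRNA vector gave -0.51 to 0.55, and the lowest of these was 228397_at, which read 502, 389, 425 and 333 in the empty vector arrays, 462, 269, 197 and 278 in the tRNA vector arrays and 396, 317, 369 and 369 in the hairpin vector arrays. Its difference for the tRNA vector against the empty vector was -0.51 ± 0.22 (limma, unadjusted p = 0.0381, adjusted p = 1.00), whereas the brightest TUG1 probe set gave 0.013 ± 0.089. The TUG1 value of 0.55 came from 229301_at, whose empty and hairpin vector arrays had geometric means of 37.3 and 40.8, below the filter signal.

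KCNQ1OT1, the antisense transcript that silences an imprinted cluster in cis, was dim: its brighter probe set read 86.8, 84.6, 112 and 189 in the empty vector arrays, 7.54, 101, 122 and 95.4 in the tRNA vector arrays and 36.8, 89.1, 101 and 131 in the hairpin vector arrays. Replicate 1 of the tRNA vector was its lowest array, and the differences from the empty vector were -1.03 ± 0.74 (tRNA vector) and -0.46 ± 0.74 (hairpin vector). Its other probe set, whose hairpin arrays lay below the filter signal on average, gave -0.013 ± 0.70 and -1.02 ± 0.70. MIAT, a nuclear transcript also called Gomafu, ranged from 29.0 to 203 over the 12 arrays, with differences of 0.61 ± 0.57 and 0.49 ± 0.57.

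GHET1, named for its high expression in gastric carcinoma, had the highest difference of the 39 genes for the tRNA vector against the empty vector. Its 1 probe set, 1570125_at, read 84.8, 65.9, 86.4 and 82.8 in the empty vector arrays, 166, 174, 157 and 179 in the tRNA vector arrays and 84.7, 158, 96.4 and 118 in the hairpin vector arrays. The empty vector signals were dim, as the median signals of the arrays were 75.9 to 104. All 4 tRNA vector arrays lay above all 4 empty vector arrays, with group means of 169 ± 9.45 and 80.0 ± 9.49, whereas the hairpin vector arrays, at 114 ± 32.2, overlapped both groups. The difference for the tRNA vector against the empty vector was 1.09 ± 0.26, a fold of 2.12, with a 95% interval from 0.53 to 1.64 (limma, unadjusted p = 0.000825, adjusted p = 1.00; exact two-sided permutation p = 0.0286). It was the 1 tested probe set of the 85 that lay higher without overlap in this comparison, as 1.17% of all tested probe sets did. That permutation p is the value that groups of 4 without overlap must give. The transcripts were chosen with earlier results of these data known, and neither the interval nor the unadjusted p values allow for that choice.

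The GHET1 difference had the same sign in each set of arrays, 0.97 in replicate 1, 1.40 in replicate 2 and 0.99 in replicates 3 and 4. With the set as a block the unadjusted limma p was 0.00131 and the adjusted p 0.295. The hairpin vector differed from the empty vector by 0.48 ± 0.26 and from the tRNA vector by -0.60 ± 0.26 (limma, unadjusted p = 0.0818 and 0.034, adjusted p = 1.00 for both). Its within-set differences from the empty vector were -0.0026, 1.26 and 0.33, and replicate 2 of the hairpin vector, at 158, was the array nearest the tRNA vector level. Without that array the hairpin difference from the empty vector was 0.31.

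LINC-PINT, a p53-induced transcript that binds Polycomb repressive complex 2, went the other way. It read 279, 327, 241 and 246 in the empty vector arrays, 223, 208, 196 and 185 in the tRNA vector arrays and 236, 230.0, 187 and 232 in the hairpin vector arrays. The arrays of both CU1276 vectors lay below every empty vector array, with group means of 203 ± 16.2 and 221 ± 23.0 against 273 ± 39.7. The differences were -0.42 ± 0.17 for the tRNA vector (limma, unadjusted p = 0.0262, adjusted p = 1.00) and -0.30 ± 0.17 in the hairpin vector arrays (unadjusted p = 0.0988, adjusted p = 1.00), both measured against the same 4 empty vector arrays. In each, the exact two-sided permutation p was 0.0286, the value that groups of 4 without overlap must give. LINC-PINT was the 1 tested probe set of the 85 that lay lower without overlap, as 1.43% and 1.06% of all tested probe sets did. Within the sets of arrays the differences were -0.32, -0.65 and -0.35 (tRNA vector) and -0.24, -0.51 and -0.23 (hairpin vector). With the set as a block the adjusted p values were 0.591 and 0.883. Permutation was run for 3 comparisons of each of 12 transcripts, 36 tests in all, and these p values are not adjusted.

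The remaining long noncoding RNAs overlapped between the vectors. NORAD, which is induced after DNA damage and binds PUMILIO proteins, read 7158, 8344, 10111 and 10175 in the empty vector arrays, 7640, 7898, 11269 and 10747 in the tRNA vector arrays and 7903, 8356, 10951 and 10608 in the hairpin vector arrays, with differences of 0.063 ± 0.16 and 0.08 ± 0.16 from the empty vector. In each group replicates 3 and 4 were the high arrays. OIP5-AS1, also called Cyrano, had group means of 3133 ± 383, 3028 ± 673 and 3015 ± 165. DLEU1, the neighbour of DLEU2, had 1340 ± 116, 1363 ± 132 and 1405 ± 147. HCG11 and HCG18 lie in the major histocompatibility region. Both HCG11 probe sets had higher means with both vectors than with the empty vector, by 0.49 ± 0.33 and 0.87 ± 0.42 (tRNA vector) and by 0.38 ± 0.33 and 0.71 ± 0.42 (hairpin vector). The HCG11 groups overlapped. Of 9 HCG18 probe sets, 3 were higher and 6 lower in the tRNA vector arrays than in the empty vector arrays, and 6 and 3 in the hairpin vector arrays.

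More of these probe sets were called between the sets of arrays than between the vectors. A limma F test between the 3 sets, with the vector in the model, called 23 of the 85 probe sets at an adjusted p of 0.05 (27.1%), where 20.8% of all tested probe sets were called. The 23 belonged to 16 genes, 6 of them snoRNA hosts. Their set means differed by 1.14-fold to 5.56-fold, and 9 differed by over 2-fold. The median share of within-group variance that lay between the sets was 40.7% for the 85 probe sets and 38.4% for all tested ones. The highest set was replicates 3 and 4 for 12 of the 23, replicate 2 for 6 and replicate 1 for 5, so the shifts were not in 1 direction.

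The NORAD probe set 1558028_x_at had the largest such difference, with signals of 99.6 to 188 in replicate 1, 264 to 409.8 in replicate 2 and 609 to 1022 in replicates 3 and 4 (limma F test, adjusted p = 6.55e-07). The suffix _x_at marks probes that can also pair with other transcripts. The brightest probe sets of ZFAS1 (226227_x_at), SNHG19 (228049_x_at), DLEU2 (1556821_x_at), HCG11 (1557169_x_at) and MEG3 (242246_x_at) carry it too. The bright NORAD probe set 224597_at had the same order of sets, with 7158 to 7903, 7898 to 8356 and 10111 to 11269 (adjusted p = 1.39e-05). GAS5 had the opposite order, with 375 to 484, 294 to 382 and 60.01 to 201 (adjusted p = 0.000233). In these 3 probe sets the range of replicates 3 and 4 overlapped neither of the others.

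MALAT1 was highest in replicate 2 at probe set 223577_x_at, with 232 to 316 in replicate 1, 429.7 to 567 in replicate 2 and 121 to 182 in replicates 3 and 4. Of its 10 tested probe sets, 6 were called between the sets. By set means, the called 224558_s_at, 231735_s_at, 228582_x_at and 227510_x_at were also highest in replicate 2. The other called probe set, 223940_x_at, was highest in replicates 3 and 4 (80.3, 137 and 191). Probe set 1558678_s_at, with group means of 456 ± 45.1, 502 ± 21.3 and 502 ± 32.0, was not called (limma F test, adjusted p = 0.696). Its set means were 476, 516 and 478. The uncalled 224567_x_at, 226675_s_at and 224568_x_at were not highest in replicate 2. OIP5-AS1 at 225332_at read 809 to 971 in replicate 1, 607 to 666 in replicate 2 and 424 to 569.5 in replicates 3 and 4 (adjusted p = 0.000632). EPB41L4A-AS1 was lowest in replicate 2, at 4365 to 4595, against 5502 to 6149 and 5452 to 5791. GHET1 and LINC-PINT were not called between the sets (limma F test, adjusted p = 0.89 and 0.467).

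**Figure D4:**
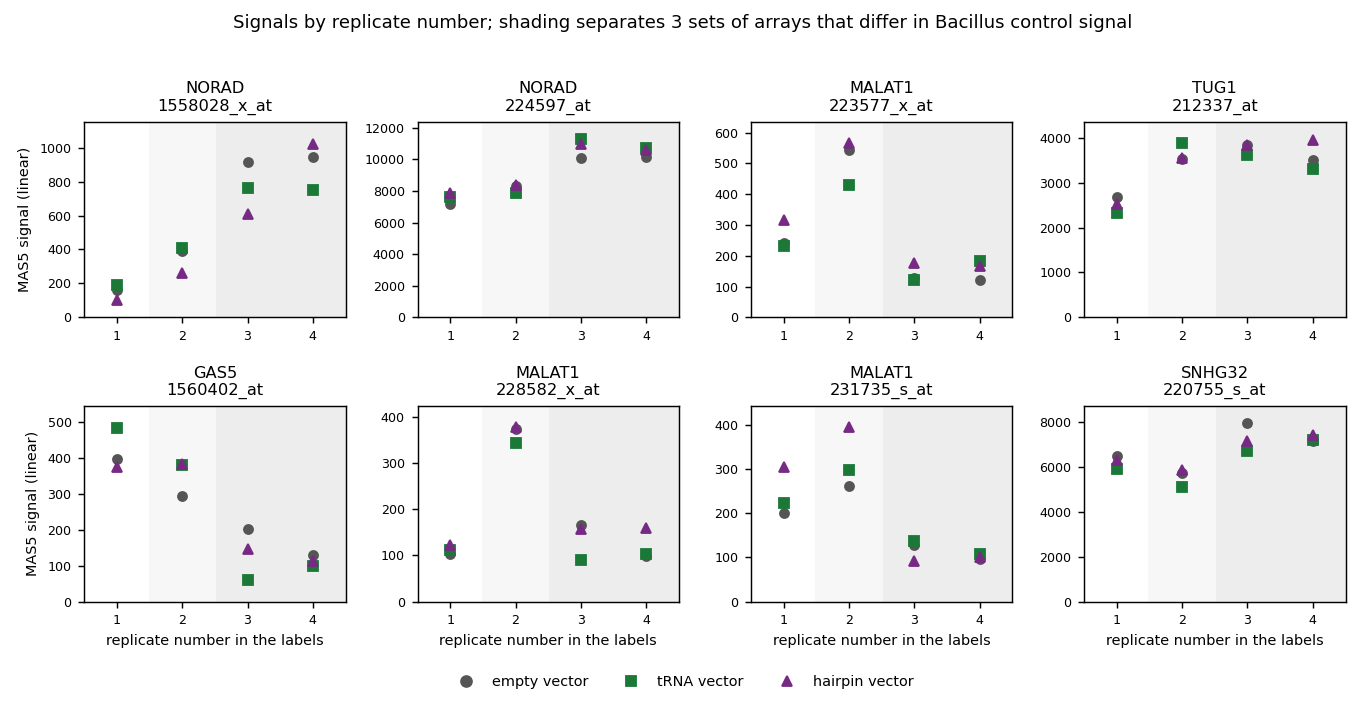
MAS5 signal (linear vertical axis from 0) of the 8 probe sets with the smallest adjusted p between the sets, against the replicate number in the labels, with 1 point per array coloured and shaped by vector; shading separates replicate 1, replicate 2, and replicates 3 and 4, which differ in Bacillus control signal. NORAD is highest and GAS5 lowest in replicates 3 and 4, whichever vector was used.

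Other genes tied to snoRNAs, transcript decay or paraspeckles were described by 4 lists, and 0 of their genes were called by limma in any comparison. DKC1 and NOP56 stood in both the snoRNP list and the list of protein-coding hosts. Of 18 snoRNP core proteins and assembly factors, 16 were tested, and 9 had a higher mean in the tRNA vector arrays and 7 in the hairpin vector arrays than in the empty vector arrays. In that list NOP58, a core protein of box C/D snoRNPs, differed by -0.19 ± 0.074 and FBL, the methyltransferase of the same particles, by 0.13 ± 0.058 for the tRNA vector (unadjusted p = 0.024 and 0.0403), so the pair lay on opposite sides of 0. GAR1, of the H/ACA particles, differed by -0.28 ± 0.11 for the hairpin vector (unadjusted p = 0.028). Between the vectors, 4 of the 16 were higher and 12 lower in the hairpin arrays, with a median of -0.047 beside the 0.0028 of all genes.

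Of 17 nonsense-mediated decay and exon junction factors, 11 were tested, with 5 higher in tRNA vector and 8 in hairpin vector arrays and medians of -0.0085 and 0.053. Their lowest unadjusted limma p values against the empty vector were 0.128 for SMG6 (tRNA vector) and 0.214 for RBM8A (hairpin vector). Of 13 paraspeckle proteins, which assemble on NEAT1, 12 were tested, with 7 and 5 higher. DAZAP1 differed by -0.34 ± 0.12 and -0.23 ± 0.12 for the tRNA and hairpin vectors (unadjusted p = 0.0118 and 0.0687). Of 39 protein-coding hosts of snoRNAs, 21 were tested, with 14 and 9 higher and medians of 0.061 and -0.015 beside the 0.0030 and 0.0042 of all genes. In each list a gene counted as tested only if a probe set with its symbol alone passed the filter. Genes annotated only together with other symbols were left out whatever their signal. In the hairpin against the tRNA vector arrays, 7 of the 21 were higher and 14 lower, with a median of -0.12. The same comparison gave 9 higher and 2 lower decay factors and 5 higher and 7 lower paraspeckle proteins, with medians of 0.074 and -0.019. Among the protein-coding hosts, PRPF39 differed by -0.36 ± 0.16 and RPL23A by 0.18 ± 0.094 for the tRNA vector (limma, unadjusted p = 0.0419 and 0.0773). The adjusted p was 1.00 for each gene named from these lists.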

How the data were processed

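Expression was measured on 12 arrays of 293T cells, 4 per vector. The deposited intensities are MAS5 signals on a linear scale, per the submitters' processing notes, which give no version. Gene symbols came from the platform annotation, whose build and version are not given in the sources used here. The log2 of each signal was used as it stands, 62 controls were left out, and the 21845 probe sets whose mean log2 fell below the 40th percentile were not tested. In limma 3.58.1 (R 4.3.3), 3 group means were fitted to 12 arrays (lmFit, eBayes with trend, Benjamini-Hochberg adjustment over 32768 probe sets, two-sided). The brightest probe set stood for each gene. Named in full were the 3 transcripts with the smallest p in each comparison, the 6 with the highest mean signal, and MALAT1, GAS5 and GHET1; values by array for DLEU2, FTX, KCNQ1OT1 and 1 more TUG1 probe set were added after they were seen. For the 4 lists, the 2 genes with the smallest p per comparison were eligible. The transcripts and lists were chosen with earlier results of these data known, and the test between the sets of arrays was added after the data were seen. Alternatives were quantile normalization, an offset of 16, no filter, a 60th percentile filter, only 8 arrays, blocks for the set of arrays or replicate number, the mean over probe sets of a gene, and leaving out each array. The fit was tested on simulated data. Start and microRNA sequences are RefSeq entries (GRCh38.p14), with a start for 54 of 67 genes. Depth does not apply to arrays, whose number limits the precision.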

Additional observations from a re-analysis of the deposited data

Results flagged for a closer look

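Within the 36 groups of 4 arrays of the 12 transcripts given in full, 2 held 1 array far from the other 3 by Dixon's criterion at the 95% level, which flags about 1 in 20 groups by chance. LINC-PINT read 187 in replicate 3 of the hairpin vector, where the others lay at 236, 230.0 and 232. MALAT1 read 389 in replicate 1 of the tRNA vector, where the others lay between 601 and 609; replicate 1 was the lowest MALAT1 array of each vector at this probe set.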

How the results depend on the processing

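In every alternative run, including each left-out array, 0 of the tested probe sets of these transcripts were called by limma. The count over all tested probe sets, 0 in each comparison, became 4, 3 and 8 with the set of arrays as a block (tRNA against empty, hairpin against empty, hairpin against tRNA). With the replicate block it became 6 for hairpin against tRNA and stayed at 0 in the others. The smallest adjusted p of these transcripts in those comparisons was 0.295, 0.883 and 0.546 with the block for sets and 0.345, 0.899 and 0.557 with the replicate block. Deviations of same-numbered arrays correlated at 0.0987 to 0.356, which misses the criterion that every pair exceed 0.1, so the numbers were not taken to pair the samples. Arrays of the same set with other numbers correlated at 0.093 to 0.148, and arrays of different sets at -0.231 to 0.020. The main fit had no term for the set, so its SEs and intervals include differences between the sets. For NORAD at 224597_at, 96.8% of the within-group variance lay between the sets. Quantile normalization turned 3 differences that lay near 0: ZFAS1 to -0.0067 and TUG1 to -0.013 for tRNA against empty, and MALAT1 to -0.012 for hairpin against tRNA. Leaving out 1 array also turned differences near 0. For tRNA against empty the ranges were -0.10 to 0.074 for EPB41L4A-AS1, -0.84 to 0.16 for GAS5, -0.29 to 0.11 for MALAT1, -0.040 to 0.15 for NORAD, -0.047 to 0.090 for TUG1 and -0.0022 to 0.10 for ZFAS1. For hairpin against empty they were -0.038 to 0.14 for EPB41L4A-AS1, -0.38 to 0.22 for GAS5, -0.29 to 0.11 for MALAT1, -0.32 to 0.22 for MIR4435-2HG, -0.022 to 0.16 for NORAD and -0.11 to 0.047 for SNHG32. For hairpin against tRNA they were -0.017 to 0.15 for EPB41L4A-AS1, -0.25 to 0.75 for GAS5, -0.15 to 0.084 for MALAT1 and -0.074 to 0.11 for NORAD. GHET1 for tRNA against empty ranged from 0.99 to 1.13 and LINC-PINT from -0.48 to -0.33. With the 60th percentile filter, 42 probe sets of these transcripts were tested. The smallest p among them for tRNA against empty was then that of LINC-PINT and not of GHET1. Dim differences moved more: MIR4435-2HG for tRNA against empty ranged from -1.97 to -0.95 and was -0.94 with an offset of 16, SNHG28 ranged from 0.26 to 0.95 (tRNA against empty) and 0.53 to 1.22 (hairpin against empty), and GHET1 for hairpin against empty from 0.31 to 0.61. The medians over 39 genes ranged from -0.017 to 0.054 (tRNA against empty; 0.013 with an offset of 16), -0.0070 to 0.096 (hairpin against empty) and -0.065 to 0.057 (hairpin against tRNA). Signals near the filter limit what can be seen of the dim transcripts.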
